A study of Homo sapiens with 6 samples.

Results

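The genes analysed here are 33 genes of cholesterol and fatty acid synthesis, chosen by name for their role in these pathways and matched to the deposited counts by gene identifier. The choice was made with earlier results of these data known. All 33 were found among the 57905 genes of the count table, and all 33 were among the 16565 genes that passed the low-count filter. They comprise 20 enzymes of sterol synthesis, 6 genes that regulate the pathway or carry sterols between membranes, and 7 enzymes of fatty acid synthesis and desaturation.

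The counts come from RNA-seq of HCT116 cells, a human colorectal carcinoma line with wild-type p53, treated with 10 µM Nutlin-3a, a small molecule that blocks the binding of p53 to its inhibitor MDM2. Cells that received only the vehicle DMSO (Nut 0h) were compared with cells collected after 1 h (Nut 1h) and 10 h (Nut 10h) of Nutlin-3a, with 2 biological replicates of each and 6 libraries in all. The comparison asks how the mRNA of these genes differed early and late after p53 activation. Both treated groups were set against the same Nut 0h libraries, a single cell line was used, and for how long the controls were kept in DMSO is not given in the sources used here.

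Cells build cholesterol from acetyl-CoA, first into mevalonate and isoprenoids, then into squalene, and from squalene through a chain of sterols. Fatty acids are built from the same acetyl-CoA by way of malonyl-CoA and are then elongated and desaturated. Many genes of both pathways are activated by the sterol regulatory element-binding proteins (SREBPs), which stay in the endoplasmic reticulum with SCAP and the INSIG proteins while sterols are plentiful and are cleaved and sent to the nucleus when sterols run short.

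The libraries held between 26068076 and 35473485 counts, and mitochondrial genes took 8.44% and 8.15% of the counts at Nut 1h against 4.99% to 7.06% in the other libraries. CDKN1A, a direct p53 target that encodes the cell cycle inhibitor p21, was at 10629 and 9286 normalized counts at Nut 0h, at 9837 and 10726 at Nut 1h and at 145531 and 139682 at Nut 10h, where normalized counts are counts scaled to a common library size. The log2 fold changes were 0.05 (adjusted p = 0.704) and 3.84 (adjusted p = 1.03e-10). MDM2, also a p53 target, was at 1688 and 2083, at 8694 and 8500 and at 22633 and 27946, and was called higher at both times. The epithelial markers EPCAM, KRT8, KRT18, KRT19 and CDH1 were at 2211 normalized counts or more in each library, while the gut brush border gene VIL1 reached at most 9.7. Of the markers of other cell types, ALB, APOA1, ADIPOQ, PLIN1, COL1A2 and PTPRC reached at most 23.3 and COL1A1 lay between 782 and 1394. The RNA was measured in bulk, so fewer cells with a transcript and less RNA per cell cannot be told apart. With 2 libraries a group, the p-values measure only the spread between these libraries.

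Levels can be compared between genes per length, as TPM, the counts divided by exon length and scaled to a common total. By this measure the most abundant of the 33 genes in the vehicle-treated Nut 0h cells were the fatty acid enzymes FASN, SCD and ACLY. FASN, the multifunctional fatty acid synthase, stood at 1200 and 1050 TPM in the Nut 0h replicates. SCD, the desaturase that makes oleate, stood at 429 and 465 TPM. ACLY, which makes cytosolic acetyl-CoA from citrate, stood at 274 and 284 TPM. These TPM levels did not overlap, and all other genes of the group lay lower in TPM. SREBF1, which encodes the SREBP that favours fatty acid genes, was at 216 and 184 TPM. EBP, a sterol isomerase, was at 140 and 138 TPM, and SREBF2, whose SREBP favours cholesterol genes, was at 142 and 128 TPM, so that the 2 genes did not differ beyond their spread. At the other end of the order, HSD17B7, FADS2, INSIG2 and CYP51A1 had overlapping levels between 8.44 and 10.2 TPM, and SC5D was lowest at 7.64 and 7.83 TPM. This order can depend on the length used, since the merged exons exceed the longest transcript by unlike amounts. They span 8234 against 4901 bases in SREBF1, 5208 against 4318 in ACLY, 10054 against 6854 in SC5D and 3949 against 3562 in INSIG2.

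**Figure D1:**
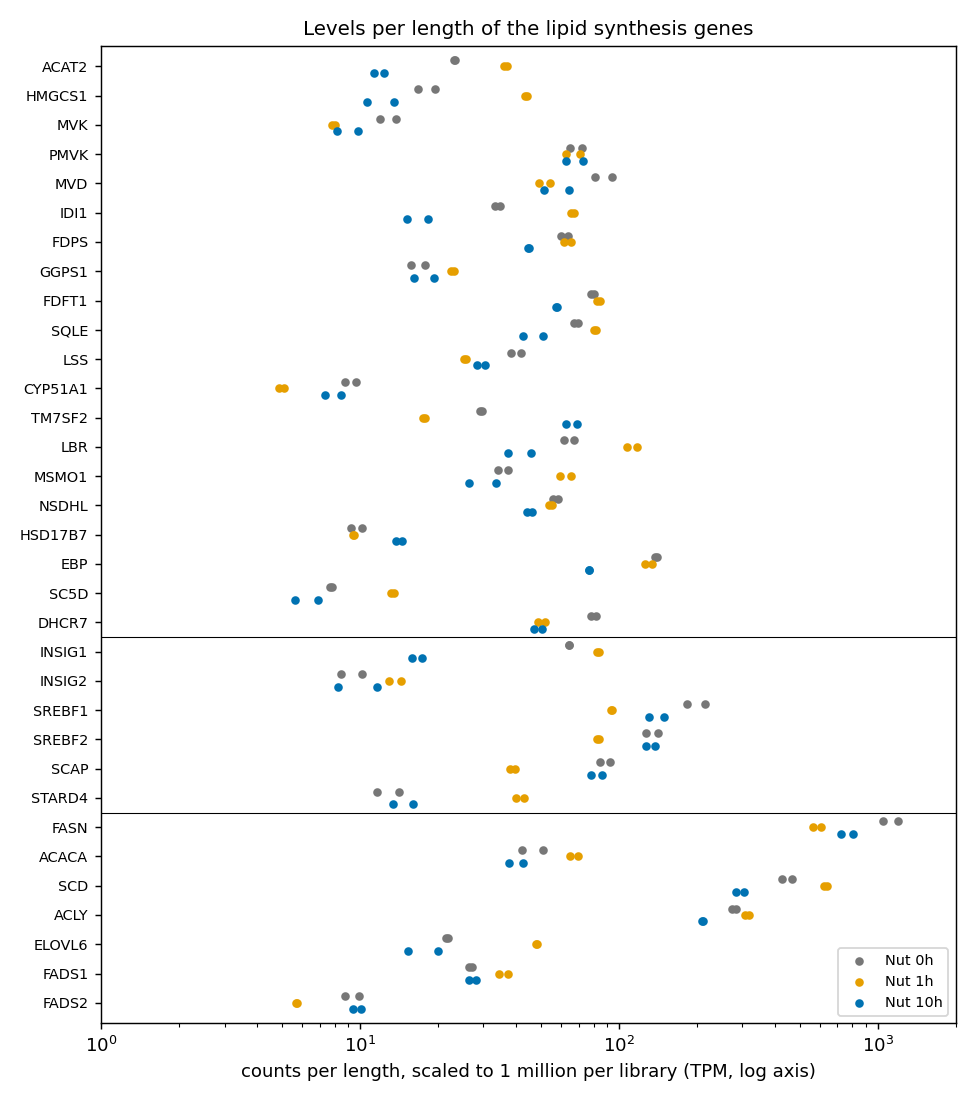
Level per length of each of the 33 genes in each library, as TPM on a log axis, with Nut 0h in grey, Nut 1h in orange and Nut 10h in blue; black lines separate sterol enzymes, regulators and fatty acid enzymes. FASN is highest at Nut 0h, at 1200 and 1050 TPM, and TM7SF2 is the gene whose Nut 10h points, at 68.7 and 62.7 TPM, lie farthest to the right of its Nut 0h points, at 29.2 and 29.6 TPM.

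After 10 h of Nutlin-3a most of the sterol synthesis pathway and part of the fatty acid pathway were at a lower mRNA level. Of the 33 genes, 18 fell and 2 rose with edgeR's quasi-likelihood test, in which a gene passed when its adjusted p did not exceed 0.05, while 13 did not pass. Among all 16565 genes tested, 14.9% fell and 14.1% rose. The median log2 fold change was -0.37 over the 33 genes and 0.000174 over all genes tested, and 24 of the 33 values were below 0. By role, 13 of the 20 sterol enzymes fell and 2 rose, 3 of the 7 fatty acid enzymes fell, and 2 of the 6 regulators fell. No fatty acid enzyme and no regulator was called higher, with 0 in each group also at an unadjusted p under 0.05 and 0 in each by DESeq2. The GC content of the transcripts, which ran from 34.4% for STARD4 to 65.3% for FASN, had a Pearson r of 0.09 with these log2 fold changes across the 33 genes, which are not independent replicates. With an offset that takes out each library's trend with GC content, all 20 calls remained and 5 were added, which made 22 genes lower and 3 higher, against 20.4% and 18.8% of all genes tested.

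**Figure D2:**
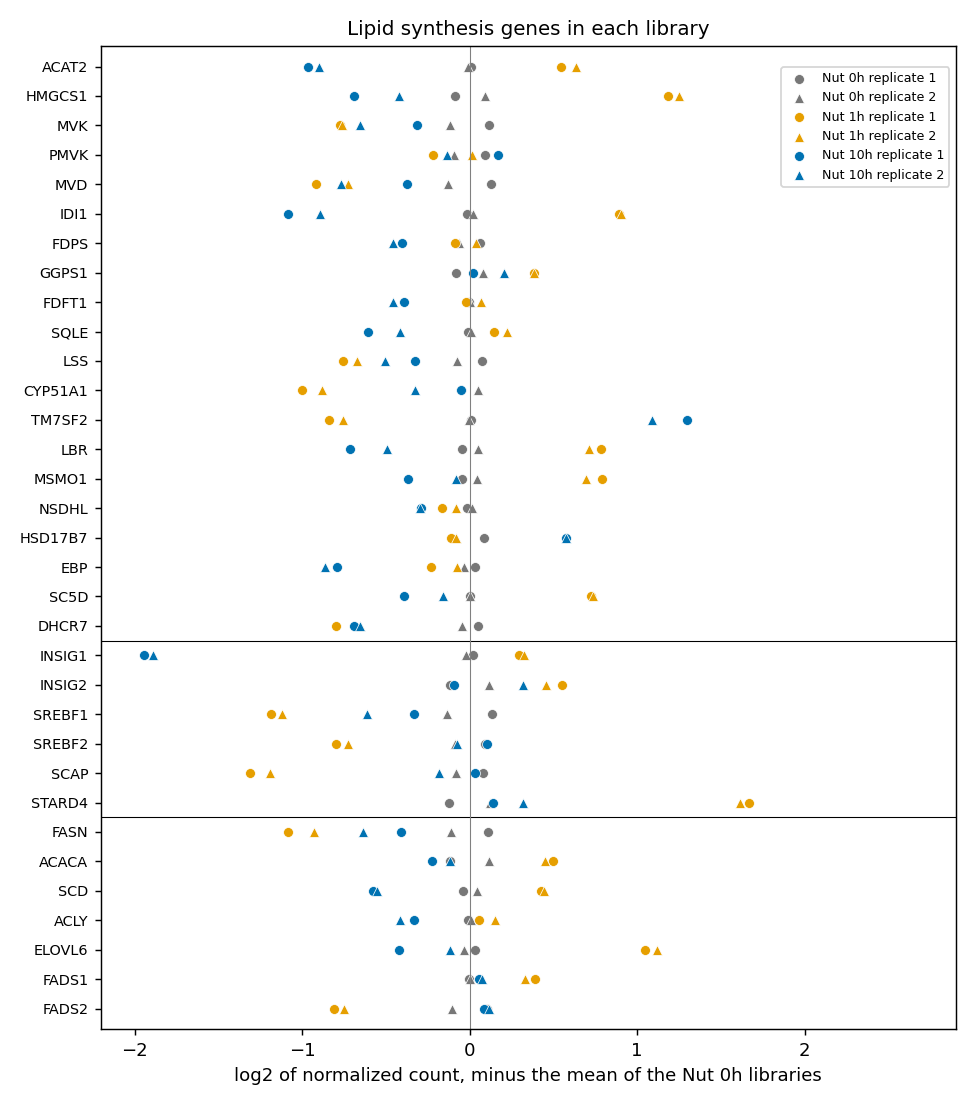
Each library's log2 normalized count of the 33 genes minus the mean of the Nut 0h libraries (grey), with replicate 1 as circles and replicate 2 as triangles, Nut 1h in orange and Nut 10h in blue. Both Nut 10h points of INSIG1, at 609 and 632 normalized counts, lie far to the left of its Nut 0h points, and those of TM7SF2, at 2461 and 2134, lie far to the right.

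The promoters of 4 genes are shown because these genes had the largest falls and the only rises at Nut 10h among the genes with a single start site in the promoter table. Each window is the plus strand of GRCh38.p14 from RefSeq, from 250 bases before the start site to 50 bases after it. INSIG1 lies at chr7:155297628-155297927, EBP at chrX:48521558-48521857, HSD17B7 at chr1:162790452-162790751 and TM7SF2 at chr11:65111622-65111921. Capitals mark the motifs that were searched.
INSIG1: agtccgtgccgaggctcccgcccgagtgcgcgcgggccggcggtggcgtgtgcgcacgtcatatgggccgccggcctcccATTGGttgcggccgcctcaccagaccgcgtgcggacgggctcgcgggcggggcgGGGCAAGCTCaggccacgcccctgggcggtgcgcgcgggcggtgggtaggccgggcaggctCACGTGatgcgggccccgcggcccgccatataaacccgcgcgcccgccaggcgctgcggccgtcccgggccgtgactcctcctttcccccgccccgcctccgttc
EBP: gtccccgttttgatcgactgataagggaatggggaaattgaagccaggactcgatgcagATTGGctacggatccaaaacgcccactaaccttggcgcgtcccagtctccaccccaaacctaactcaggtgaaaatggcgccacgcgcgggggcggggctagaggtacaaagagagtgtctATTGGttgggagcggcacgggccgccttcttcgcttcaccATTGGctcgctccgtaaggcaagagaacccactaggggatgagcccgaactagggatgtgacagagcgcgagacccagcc
HSD17B7: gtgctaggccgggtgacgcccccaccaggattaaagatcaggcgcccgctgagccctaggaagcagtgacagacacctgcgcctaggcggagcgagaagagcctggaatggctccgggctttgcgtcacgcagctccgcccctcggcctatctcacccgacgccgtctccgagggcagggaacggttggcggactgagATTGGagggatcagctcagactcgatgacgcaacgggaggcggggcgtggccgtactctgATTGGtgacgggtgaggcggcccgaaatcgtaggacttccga
TM7SF2: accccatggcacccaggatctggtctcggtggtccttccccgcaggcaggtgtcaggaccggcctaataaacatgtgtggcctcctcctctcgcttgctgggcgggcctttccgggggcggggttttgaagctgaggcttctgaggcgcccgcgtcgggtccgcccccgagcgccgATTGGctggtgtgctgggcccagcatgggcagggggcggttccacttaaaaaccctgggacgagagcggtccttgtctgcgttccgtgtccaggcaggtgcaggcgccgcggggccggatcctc

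The motifs searched on both strands were CCAAT, the box bound by NF-Y, which often works beside SREBPs; CACGTG, an E-box that SREBPs can also bind; TCACNCCAC, a form of the sterol regulatory element; and the p53 half-site consensus. Matching by symbol gave 41 windows for 29 of the 33 genes, since some genes have several start sites, and ACAT2, FDFT1, SQLE and FASN had none. CCAAT was present in 25 of the 41 windows, or 61%, and in 34.6% of the 35116 windows of the table. Counted by gene, it was present for 21 of the 29. Some windows of the same gene overlap, as for ACLY, SC5D and IDI1, so a site can be counted more than once among the windows. In the windows printed, it occurs once for INSIG1 and TM7SF2, in 2 places for HSD17B7 and in 3 for EBP. Each time it is the reverse complement ATTGG, and it is present in windows of genes that fell and of genes that rose. CACGTG was present in 5 windows (12.2%, against 7.26% of all), of LSS, SC5D, INSIG1 and SCAP. TCACNCCAC was found in 1 window (2.44%, against 1.13% of all), that of SREBF2, as TCACCCCAC. The p53 half-site consensus was found in 2 windows (4.88%, against 6.63% of all), those of MVK and INSIG1, in the latter as GGGCAAGCTC. None of the matches in the printed windows overlaps another, and a match of letters is a description and not a site of binding.

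The first steps of the pathway, from acetyl-CoA to the isoprenoids, were lower at Nut 10h in 6 of 8 genes. Among all genes tested, 14.9% were lower and 14.1% higher. ACAT2, the thiolase that joins acetyl-CoA units (GRCh37 chr6:160183077-160200144), stood at 616 and 608 normalized counts at Nut 0h and at 313 and 328 at Nut 10h. The groups were far apart, and the level fell 1.91-fold (log2 fold change -0.93, SE 0.11, adjusted p = 1.56e-05). IDI1, which isomerizes isopentenyl diphosphate (chr10:1085092-1095059), fell 1.98-fold from 1443 and 1478 to 687 and 785 (log2 fold change -0.99, SE 0.10, adjusted p = 4.17e-06). HMGCS1, the HMG-CoA synthase, fell 1.47-fold from 1127 and 1275 to 744 and 893 (adjusted p = 0.00195). MVD, which decarboxylates mevalonate diphosphate, fell 1.48-fold from 4501 and 3774 to 3185 and 2418 (adjusted p = 0.00498). These ranges did not overlap in any of the 4 genes. MVK, the mevalonate kinase, fell 1.40-fold from 1256 and 1070.5 to 931 and 737 (adjusted p = 0.00913), a call that was lost without Nut 0h replicate 1 (adjusted p = 0.0735) and without Nut 10h replicate 2 (0.0771). FDPS, the farnesyl diphosphate synthase, fell 1.35-fold from 2398 and 2201 to 1737 and 1673 (adjusted p = 0.00361). PMVK, the next kinase after MVK, had overlapping groups at 729.6 and 641 against 769 and 624, as did GGPS1, which makes geranylgeranyl diphosphate, at 603 and 674 against 647 and 736. Of the exon bases, 37.7% in HMGCS1, 18.6% in FDPS, 17.2% in ACAT2 and 15.0% in IDI1 lie in exons of another counted gene on the other strand, and the strand setting of the counting is not given in the sources used here.

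From squalene onward, 7 of the 12 enzymes fell and 2 rose, against 14.9% and 14.1% of all genes tested. EBP (GRCh37 chrX:48380187-48387104), which moves a double bond in the sterol ring, had the largest fall of this stretch, from 2509.5 and 2404 normalized counts at Nut 0h to 1421 and 1352 at Nut 10h, or 1.77-fold (log2 fold change -0.83, SE 0.10, adjusted p = 1.64e-05). DHCR7, which reduces the direct precursor to cholesterol, fell 1.59-fold from 5663 and 5305 to 3401 and 3486 (adjusted p = 8.85e-05). SQLE, the squalene epoxidase and a rate-limiting step, fell 1.42-fold from 2915 and 2954 to 1927 and 2196 (adjusted p = 0.00115). In all 3 genes both Nut 10h libraries lay below both Nut 0h libraries. FDFT1, the squalene synthase, fell 1.34-fold from 3999.6 and 4017 to 3055 and 2924 (adjusted p = 0.00264). LSS, which closes the sterol rings, fell 1.33-fold from 3061 and 2755 to 2316 and 2049 (adjusted p = 0.00624), and this call was lost without Nut 0h replicate 1 (adjusted p = 0.0704) and without Nut 10h replicate 2 (0.056). NSDHL, which takes part in removing the methyl groups of lanosterol, was called lower with the smallest change, 1.22-fold (1121 and 1145 against 928 and 923, adjusted p = 0.0335). That call was lost when any one of the 6 libraries was left out, with adjusted p between 0.0744 and 0.124, and also with upper-quartile normalization (0.0667) and in a fit of only the 2 groups compared (0.0708).

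TM7SF2 and LBR encode reductases for the same step of sterol synthesis, and their mRNA went opposite ways at Nut 10h. TM7SF2 (GRCh37 chr11:64879317-64883856) was at 1006 and 997 normalized counts at Nut 0h and at 2461 and 2134 at Nut 10h. It rose 2.29-fold (log2 fold change 1.2, SE 0.10, adjusted p = 7.04e-07), and 610 of the 16565 genes tested had a higher log2 fold change. LBR, which also anchors chromatin at the nuclear envelope, was at 3553 and 3793 at Nut 0h and at 2240.0 and 2606 at Nut 10h, a 1.52-fold fall (log2 fold change -0.60, SE 0.10, adjusted p = 0.00042). Per length, LBR was above TM7SF2 at Nut 0h (61.5 and 67.2 against 29.2 and 29.6 TPM) and below it at Nut 10h (37.3 and 45.7 against 68.7 and 62.7 TPM). The other gene that rose was HSD17B7, a ketoreductase of the demethylation steps, from 492 and 438 to 692 and 693 (1.49-fold, adjusted p = 0.00109). HSD17B7 has pseudogene copies, and how reads that map to several places were counted is not given in the sources used here.

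The 3 remaining enzymes of this stretch did not pass the test at Nut 10h. MSMO1, the methyl oxidase, stood at 985 and 1049.9 normalized counts at Nut 0h and at 787 and 961 at Nut 10h (adjusted p = 0.162). SC5D, a desaturase near the end of the pathway, stood at 777 and 778 against 592 and 695 (adjusted p = 0.0713). Both had Nut 10h libraries below the Nut 0h libraries, and both were called lower without Nut 10h replicate 2 (adjusted p = 0.0363 and 0.0276) and with the GC-content offset (0.0156 and 0.00877). CYP51A1, the lanosterol demethylase, overlapped between the groups, at 370.1 and 396 against 370.3 and 305.

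Among the regulators, INSIG1 had the largest fall of all 33 genes. INSIG1 (GRCh37 chr7:155089486-155101945) encodes a protein that retains SCAP and the SREBPs in the endoplasmic reticulum and is itself a target of the SREBPs. It stood at 2379 and 2310.1 normalized counts at Nut 0h and at 609 and 632 at Nut 10h. The groups were far apart, with a 3.78-fold fall (log2 fold change -1.92, SE 0.09, adjusted p = 5.02e-09), and 87 of the 16565 genes tested had a lower log2 fold change. INSIG2, its paralogue of like function, was at 337 and 396 at Nut 0h and at 342 and 456 at Nut 10h, so that the groups overlapped (log2 fold change 0.12, SE 0.14, adjusted p = 0.567). SREBF1 fell 1.39-fold from 18002 and 14962 to 13011 and 10734 (adjusted p = 0.00675), and this call was lost without Nut 0h replicate 1 (adjusted p = 0.0812) and without Nut 10h replicate 2 (0.0717). SREBF2 was at 11527 and 10182 against 11658 and 10300.4, and SCAP, the sterol sensor that escorts the SREBPs, was at 5904 and 5270.1 against 5696 and 4918. Both overlapped between Nut 0h and Nut 10h, with log2 fold changes of 0.02 (SE 0.10) and -0.07 (SE 0.10). STARD4, which carries cholesterol between membranes, was higher in both Nut 10h libraries, at 800.5 and 905 against 668 and 791, without passing the test (adjusted p = 0.148), and it was called higher with the GC-content offset (log2 fold change 0.21, adjusted p = 0.0379).

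Of the fatty acid enzymes, SCD, FASN and ACLY fell at Nut 10h. SCD was at 22757 and 24118 normalized counts at Nut 0h and at 15707 and 15957 at Nut 10h, a 1.48-fold fall (log2 fold change -0.57, SE 0.09, adjusted p = 0.000301). FASN (GRCh37 chr17:80036214-80056170) was at 113016 and 96922 at Nut 0h and at 78799.9 and 67290.1 at Nut 10h. It fell 1.44-fold (log2 fold change -0.52, SE 0.11, adjusted p = 0.0033) and remained the most abundant of the 33 genes per length, at 805 and 723 TPM. ACLY fell 1.30-fold from 14418 and 14606 to 11531 and 10868 (adjusted p = 0.00689), a call lost without Nut 10h replicate 2 (adjusted p = 0.0757). In these 3 genes the groups did not overlap. ACACA, the acetyl-CoA carboxylase that makes malonyl-CoA, overlapped between the groups at 5560.2 and 6553 against 5168 and 5568 (adjusted p = 0.216). ELOVL6, an elongase that lengthens palmitate, was at 1613 and 1543 against 1178 and 1454 (adjusted p = 0.0854), and it was called lower without Nut 10h replicate 2 (adjusted p = 0.0124). Both genes were called lower with the GC-content offset (adjusted p = 0.0317 for ACACA and 0.00885 for ELOVL6). The desaturases of polyunsaturated fatty acids showed no difference that passed the test, with log2 fold changes of 0.06 (SE 0.09) for FADS1 and 0.10 (SE 0.10) for FADS2.

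**Figure D3:**
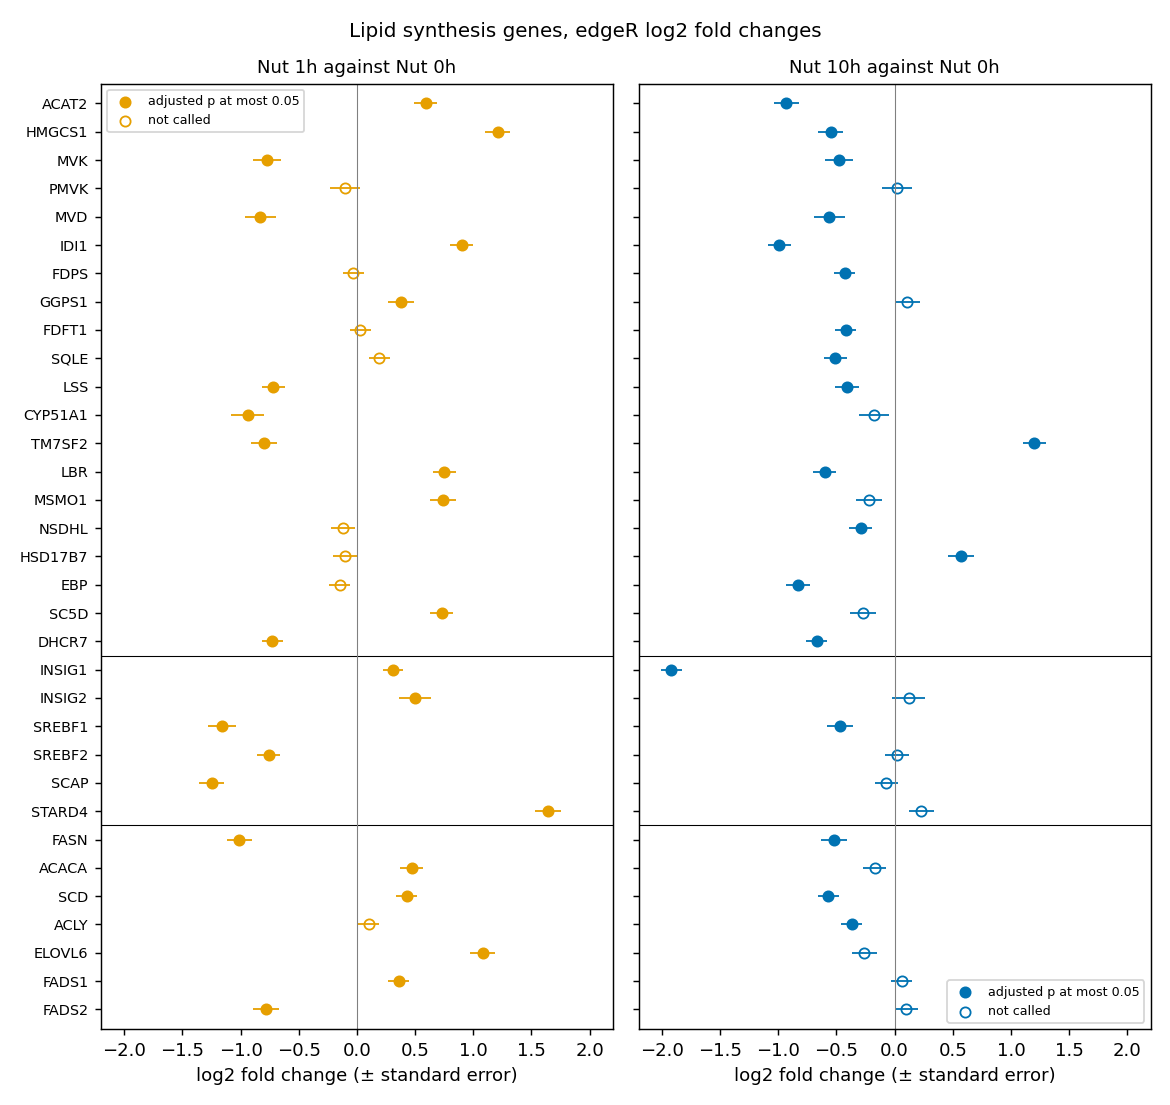
edgeR log2 fold changes of the 33 genes at Nut 1h (left, orange) and Nut 10h (right, blue) against the same Nut 0h libraries, with bars for the standard error, filled circles for genes that passed the test and open circles for genes that did not pass. At Nut 10h 18 genes fell and 2 rose, with INSIG1 at -1.92 and TM7SF2 at 1.2 as the ends of the range, whereas at Nut 1h 14 were called higher and 11 lower.

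At Nut 1h the 33 genes split in both directions, as did all genes tested. Of them 14 were called higher and 11 lower, and 8 did not pass, while 34.5% of all genes tested were called higher and 32.3% lower. The median log2 fold change was 0.03 over the 33 genes and 0.05 over all genes tested. The sterol enzymes had 7 higher and 6 lower, the regulators 3 and 3, and the fatty acid enzymes 4 and 2, all without a correction for GC content. GC content moved with this comparison in the whole table: the Pearson r between GC content and the log2 fold change was -0.69 across 16237 genes and -0.84 across the 33 genes. All 6 of the genes under 40% GC were called higher, as were 82.7% of all tested genes in that range, and all 5 of those at 60% or more were called lower, as were 84.4% of all tested genes in that range. The Nut 1h libraries also had the highest mitochondrial shares. The part of GC content and of the mitochondrial share in the Nut 1h values was not tested. With the GC-content offset 14 genes were higher and 5 lower, against 22.7% and 23.4% of all genes tested. By role, the sterol enzymes then had 7 higher and 3 lower, the regulators 1 and 2, and 6 of the 7 fatty acid enzymes were higher, with FADS2 not passing. Of the calls made without the offset, 7 higher and 2 lower calls remained, 11 were lost and 5 were made in the opposite direction.

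**Figure D4:**
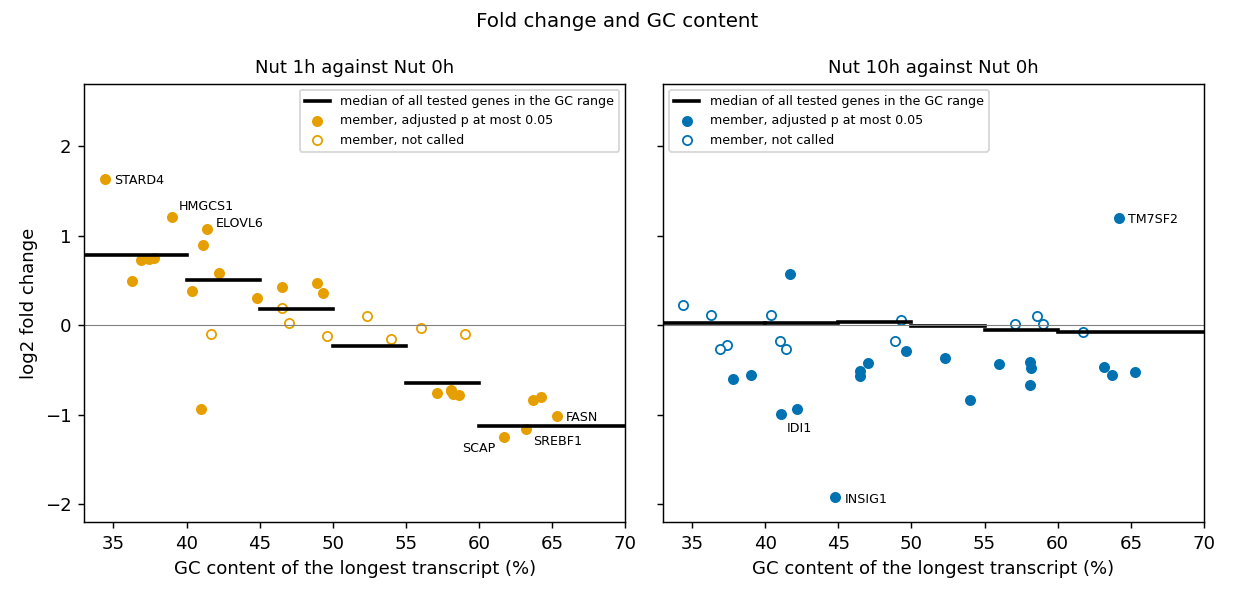
Log2 fold change against the GC content of the longest transcript for the 33 genes at Nut 1h (left) and Nut 10h (right); filled points passed the test, open points did not, and black bars are the medians of all tested genes in each GC range. At Nut 1h the points descend with the bars, from STARD4 at 34.4% GC to FASN at 65.3%, and at Nut 10h the bars lie near 0.

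The genes whose higher call at Nut 1h remained with the offset were HMGCS1, IDI1, STARD4, ACACA, SCD, ELOVL6 and FADS1. STARD4 had the largest difference, from 668 and 791 normalized counts at Nut 0h to 2313 and 2226 at Nut 1h. This was a 3.11-fold rise (log2 fold change 1.64, SE 0.11, adjusted p = 9.49e-08), and the log2 fold change was 0.72 with the offset (adjusted p = 1.82e-06). HMGCS1 rose 2.32-fold from 1127 and 1275 to 2722 and 2848, with a log2 fold change of 1.21 without and 0.52 with the offset. ELOVL6 rose 2.12-fold from 1613 and 1543 to 3264 and 3423, with 1.08 without and 0.52 with the offset. IDI1 rose 1.86-fold from 1443 and 1478 to 2706 and 2731, with 0.90 and 0.31. Each of these 4 genes had both Nut 1h libraries well above both Nut 0h libraries. ACACA, at 8525 and 8253, SCD, at 31527 and 31826, and FADS1, at 3601 and 3446, were also above Nut 0h in both libraries, with log2 fold changes of 0.47, 0.43 and 0.36 without the offset and 0.44, 0.21 and 0.36 with it. The lower calls that remained with the offset were those of CYP51A1, which fell 1.92-fold from 370.1 and 396 to 192 and 208 (log2 fold change -0.94 without and -1.53 with the offset), and SCAP, which fell 2.38-fold from 5904 and 5270.1 to 2244 and 2443 (-1.25 and -0.28). Of the exon bases of CYP51A1, 5.9% lie in exons of other counted genes, on the other strand.

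Other Nut 1h calls did not remain with the offset. SREBF1 was at 7209 and 7544 normalized counts at Nut 1h, 2.23-fold below Nut 0h. Its log2 fold change was -1.16 (adjusted p = 1.41e-06) without the offset and -0.06 (adjusted p = 0.492) with it. SREBF2, at 6227 and 6553, went from -0.76 to -0.15, and DHCR7, LSS, MVK and FADS2 went from values between -0.78 and -0.72 to values between -0.07 and -0.03. LBR, at 6333 and 6025, MSMO1, at 1757 and 1649, SC5D, at 1282 and 1294, and ACAT2, at 892 and 950.2, had been called higher at 0.75, 0.74, 0.73 and 0.59, and with the offset their values were -0.00297, -0.03, -0.07 and 0.07. FASN was at 49374 and 54989 at Nut 1h, called lower at -1.01 without the offset and higher at 0.28 with it. MVD (-0.83 and 0.32) and TM7SF2 (-0.80 and 0.39) likewise turned from lower to higher, and GGPS1 (0.38 and -0.24) and INSIG2 (0.50 and -0.33) from higher to lower. INSIG1, at 2878 and 2937, was called higher at 0.31 without the offset (adjusted p = 0.00662) and was at -0.04 with it. The call of INSIG1 without the offset was also lost without Nut 0h replicate 2 (adjusted p = 0.0673) or Nut 1h replicate 2 (0.073), that of INSIG2 without Nut 1h replicate 1 (0.0671), and that of GGPS1 without Nut 0h replicate 1 (0.075), Nut 1h replicate 1 (0.0502) or Nut 1h replicate 2 (0.0507). The 5 calls that the offset added were higher for PMVK, FDPS, EBP and ACLY and lower for HSD17B7.

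**Figure D5:**
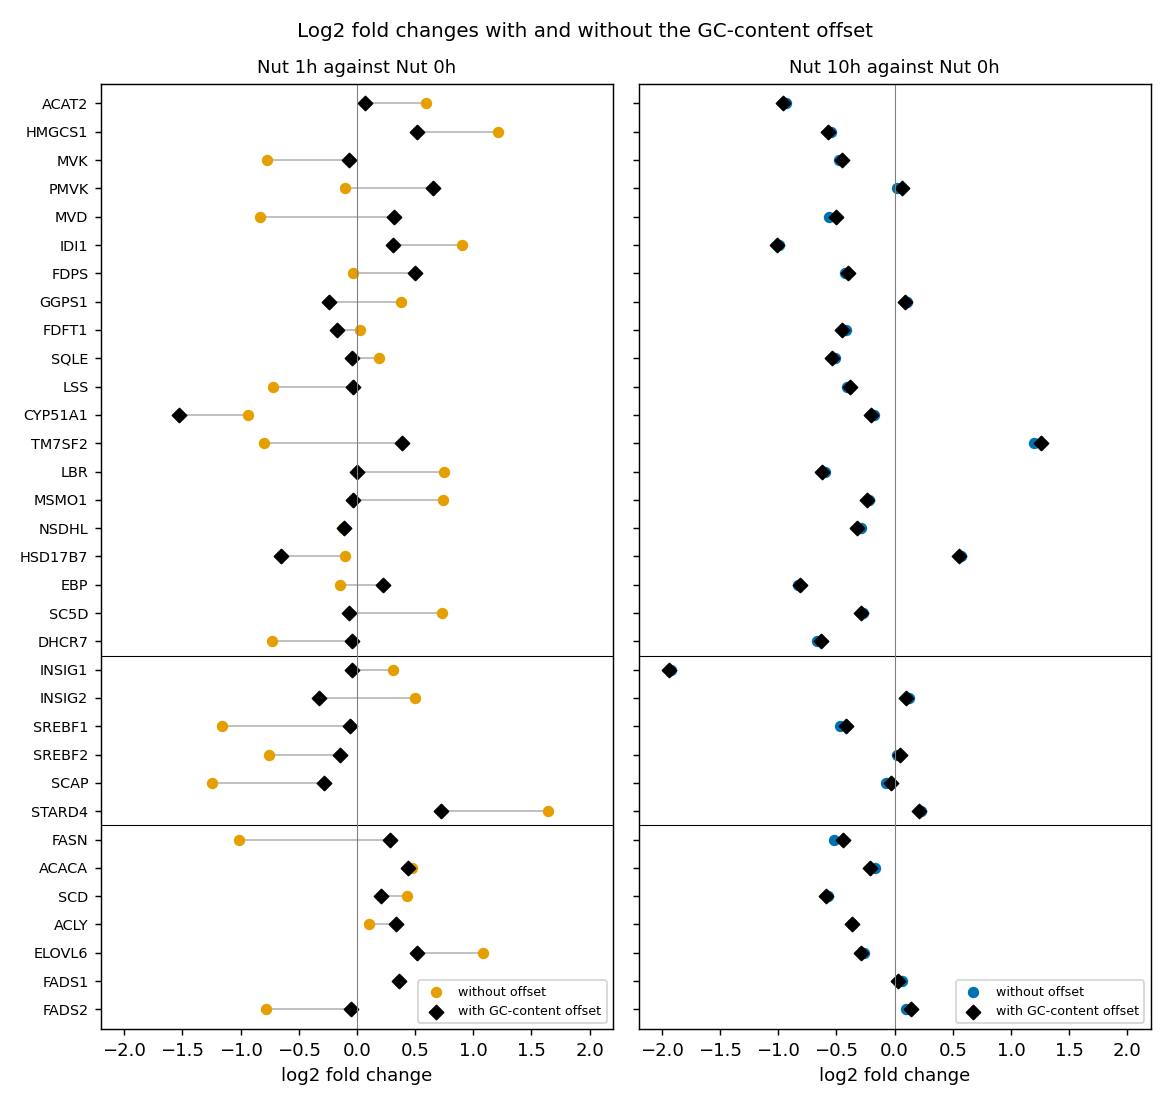
Log2 fold changes of the 33 genes against Nut 0h without (coloured circles) and with (black diamonds) the GC-content offset, at Nut 1h (left) and Nut 10h (right), joined by a grey line for each gene. At Nut 1h many diamonds lie far from their circles, as for FASN at -1.01 and 0.28, and at Nut 10h they nearly coincide, as for INSIG1 at -1.92 and -1.94.

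Between the Nut 10h and Nut 1h libraries, 19 of the 33 genes were lower and 9 higher at Nut 10h, against 33.7% and 34.2% of all genes tested. The median log2 fold change was -0.38 over the 33 genes and -0.02 over all genes tested. The largest differences were those of INSIG1 (-2.23, SE 0.09), IDI1 (-1.88, SE 0.10), HMGCS1 (-1.77, SE 0.11) and ACAT2 (-1.52, SE 0.11) on the lower side and TM7SF2 (1.99, SE 0.11) on the higher side. With the GC-content offset these were -1.90, -1.32, -1.09, -1.03 and 0.87, and 25 genes were lower and 7 higher, against 29.2% of all genes tested in each direction. FASN, SREBF1 and LSS were called higher at Nut 10h than at Nut 1h without the offset (0.49, 0.69 and 0.30) and lower with it (-0.72, -0.36 and -0.35), and GGPS1 and INSIG2 turned from lower (-0.27 and -0.38) to higher (0.33 and 0.43). The calls of GGPS1, INSIG2 and LSS were each lost without Nut 1h replicate 1, Nut 1h replicate 2 or Nut 10h replicate 1, with adjusted p from 0.147 to 0.368, from 0.075 to 0.386 and from 0.0586 to 0.158. GGPS1 was also lost with RLE (adjusted p = 0.0503) or upper-quartile normalization (0.057), without the low-count filter (0.0657) and with DESeq2 (0.0994), and INSIG2 with DESeq2 (0.0591). FADS1 was lost without Nut 1h replicate 1, Nut 10h replicate 1 or Nut 10h replicate 2 (adjusted p from 0.0627 to 0.0881). Without Nut 10h replicate 2, MVK, PMVK and MVD were added as higher (adjusted p = 0.000657, 0.0344 and 0.000545), and MVK was also added without Nut 0h replicate 1 (0.0321) or Nut 0h replicate 2 (0.0314). MVK and MVD were also added as higher without the low-count filter (adjusted p = 0.0438 and 0.0367) and in a fit of only the 2 groups compared (0.0318 and 0.0427). MVK was added as well with upper-quartile normalization (0.0432) and with the replicate block (0.0355). With the GC-content offset MVK, PMVK and MVD were called lower instead, at -0.38, -0.59 and -0.82.

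Other genes around the pathway were compared between Nut 10h and Nut 0h, where 14.1% of all genes tested rose and 14.9% fell. With the GC-content offset these shares were 18.8% and 20.4%. Of 11 genes of SREBP processing, of the degradation of sterol-regulated proteins and of the sterol-sensing LXR receptors, 2 rose and 2 fell, which is near those shares, with a median log2 fold change of -0.01. TMEM97, a sterol-responsive protein of the endoplasmic reticulum, fell 1.5-fold from 2314 and 2293 to 1518 and 1562 normalized counts, and ERLIN1, which binds cholesterol-rich membrane of the endoplasmic reticulum, fell 1.39-fold from 3292 and 3495 to 2339.6 and 2539.5. MBTPS1, the first of the proteases that release the SREBPs, rose 1.32-fold from 6742 and 6823 to 9069 and 8862. ERLIN2 was called higher at 1.21-fold (adjusted p = 0.0483), a call that 5 of the 6 single-library omissions removed, with adjusted p from 0.079 without Nut 0h replicate 2 to 0.306 without Nut 0h replicate 1. It was also lost with RLE normalization (0.0536), no low-count filter (0.199), DESeq2 (0.091), the replicate block (0.0506) and a fit of only the 2 groups compared (0.0933). In the isoprenoid branch 1 of 8 genes was called, and 2 were called with the GC-content offset, both lower: PDSS1, which builds the tail of ubiquinone, fell 1.43-fold. Of 8 genes of cholesterol transport and storage, 0 were called at Nut 10h by edgeR or by DESeq2, 1 had an unadjusted p under 0.05 in edgeR, and 1 was called higher with the GC-content offset.

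Of 19 further genes of fatty acid supply, elongation, activation and glycerolipid synthesis, 3 rose and 5 fell at Nut 10h, against 14.1% and 14.9% of all genes tested. Their median log2 fold change was 0.00489, and with the GC-content offset 6 were higher and 9 lower, against 18.8% and 20.4%. ACSL3, which activates fatty acids at lipid droplets, fell 1.82-fold from 4877 and 5289 to 2743 and 2835 normalized counts. ACACB, the mitochondrial acetyl-CoA carboxylase, fell 1.81-fold from 473 and 509 to 279 and 264. MID1IP1, which promotes the polymerization of acetyl-CoA carboxylase, rose 1.54-fold from 5581 and 4670.0 to 8458 and 7281. ME1, the cytosolic malic enzyme, rose 1.28-fold, but its call was lost without Nut 0h replicate 1 (adjusted p = 0.135), Nut 10h replicate 2 (0.145) or either Nut 1h library (0.051 and 0.053). Of 8 genes of fatty acid oxidation 3 were called and all of them rose (4 higher and 1 lower with the GC-content offset), among them CPT2, which returns fatty acids to CoA inside mitochondria (1.39-fold, from 1082 and 1088 to 1579 and 1449 normalized counts).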

How the data were processed

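RNA of HCT116 cells was sequenced in 6 libraries (Nut 0h, Nut 1h and Nut 10h, 2 biological replicates each). The authors trimmed paired-end reads with Trim Galore 0.6.6, mapped them to GRCh37 with STAR 2.7.0f and counted them per gene with featureCounts (Subread 2.0.0), and the deposited values are raw counts, without normalization, for 57905 genes. Strand and multimapping settings are not given in the sources used here. The deposited table of the authors' own comparisons, with log2 fold changes and p-values, was used only for gene symbols.

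Genes were filtered with filterByExpr, normalized by TMM and tested with the quasi-likelihood test of edgeR 4.0.16 (R 4.3.3) over all 6 libraries with time as the only term, which left 3 residual degrees of freedom. Benjamini-Hochberg adjustment ran over all 16565 genes tested, and genes with an adjusted p up to 0.05 were called. TPM used merged exon lengths of GENCODE v44lift37, which also gave coordinates and the GC content of the longest transcript (98% of tested genes). The GC-content offset was a loess trend (span 0.4) of each library's deviation. The test was tried on simulated data. Alternatives comprised RLE and upper-quartile normalization, no filter or a stricter one (50 counts in 2 libraries), DESeq2 1.42.0, designs, a threshold of 0.01, a replicate block, the GC-content offset and each library left out. Figures used matplotlib 3.10.9.

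The 33 genes and all lists were chosen with earlier results of these data known. All 33 were named, with CDKN1A as a check, and in each other list up to 2 rises and 2 falls with the largest change at Nut 10h among called genes whose groups did not overlap. A gene that this rule also names is not reported here.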

Additional observations from a re-analysis of the deposited data

Results flagged for a closer look

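For 7 of the 33 genes the effect of Nutlin-3a was called in opposite directions at Nut 1h and Nut 10h, and the difference between the time points itself passed edgeR's test. The same held for 9.27% of all genes tested. Both effects use the same Nut 0h libraries, so the difference was taken directly between the Nut 10h and Nut 1h libraries. It was -2.23 on the log2 scale for INSIG1 (adjusted p = 4.98e-10), -1.88 for IDI1 (2.78e-09), -1.77 for HMGCS1 (1.28e-08), -1.52 for ACAT2 (3.36e-08), -1.35 for LBR (5.66e-08), -1.0 for SCD (3.57e-07) and 1.99 for TM7SF2 (2.83e-09). With the GC-content offset the differences were -1.90, -1.32, -1.09, -1.03, -0.62, -0.80 and 0.87. Their Nut 1h effects with the offset were -0.04 for INSIG1, 0.31 for IDI1, 0.52 for HMGCS1, 0.07 for ACAT2, -0.00297 for LBR, 0.21 for SCD and 0.39 for TM7SF2, so that IDI1, HMGCS1 and SCD kept opposite calls. In all 11 genes had opposite calls and a called difference with the offset, against 8.6% of all genes tested. The others were MVD (0.32 at Nut 1h and -0.50 at Nut 10h), FDPS (0.50 and -0.40), EBP (0.22 and -0.81), FASN (0.28 and -0.44), ACACA (0.44 and -0.21), ACLY (0.34 and -0.37), ELOVL6 (0.52 and -0.29) and HSD17B7 (-0.65 and 0.55).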

How the results depend on the processing

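At Nut 10h the counts of 18 lower and 2 higher genes stayed at 16 to 20 lower and 2 higher under other normalizations, filters, DESeq2 and single-library omissions apart from 14 lower without Nut 0h replicate 1, and no called value reversed. Of genes not called, PMVK (-0.13 to 0.18), SREBF2 (-0.08 to 0.12), SCAP (-0.18 to 0.04), FADS2 and INSIG2 had values of either sign with a library left out. The median of -0.37 was -0.33 with upper-quartile normalization, -0.42 without the low-count filter and between -0.41 and -0.33 with a library left out. At Nut 1h the GC-content offset gave 5 lower genes in place of 11, of which 2 were among the 11, also with the replicate block, and the median of 0.03 became -0.03 with the offset with or without the block, -0.02 without the low-count filter and between -0.03 and 0.07 with a library left out. For Nut 10h against Nut 1h the median of -0.38 was -0.50 with the offset with or without the block and between -0.37 and -0.25 with a library left out. Among genes called with or without it, the offset turned the sign of PMVK (0.65), MVD (0.32), FDPS (0.50), GGPS1 (-0.24), TM7SF2 (0.39), LBR (-0.00297, and -0.00296 with the block), MSMO1 (-0.03), EBP (0.22), SC5D (-0.07), INSIG1 (-0.04), INSIG2 (-0.33, and -0.32 with the block) and FASN (0.28) at Nut 1h. For Nut 10h against Nut 1h it turned the sign of MVK (-0.38), PMVK (-0.59), MVD (-0.82), GGPS1 (0.33), LSS (-0.35), DHCR7 (-0.60), INSIG2 (0.43, and 0.42 with the block), SREBF1 (-0.36) and FASN (-0.72), and the other values were the same with the block; the cause was not tested. Replicate numbers were not used as pairs in the main fit. Deviations of same-numbered libraries correlated with both signs, at -0.149 (Nut 1h and Nut 0h), 0.221 (Nut 10h and Nut 0h) and -0.138 (Nut 10h and Nut 1h). The replicate block alone gave 14 higher and 11 lower genes for Nut 1h and 2 higher and 18 lower for Nut 10h. For Nut 10h against Nut 1h it gave 10 higher and 19 lower. Crossed numbers for Nut 1h, added after seeing the data, added 2, 5 and 3 calls among the 33 genes. Over all tested genes, 1641 were lower at Nut 10h without Nut 0h replicate 1, against 2470. The lowest normalized count among the 33 genes was 191.6, for CYP51A1 in Nut 1h replicate 1, and its raw counts at Nut 1h were 191 and 165. Each group had only 2 libraries, and the parts of counting error and of the spread between libraries in the precision of these genes were not tested.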
